A study of Mus musculus with 4 samples.

Results

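The genes described here encode the subunits of CCT (also called TRiC), the chaperonin of the cytosol, in mouse 2-cell embryos cultured with or without dimethyl sulfoxide (DMSO). They were taken by symbol: 8 ring subunits were listed (Tcp1, Cct2, Cct3, Cct4, Cct5, Cct6a, Cct7 and Cct8), and 7 of them had values among the 30049 genes of the expression table. The RNA level of Cct6a was not analysed here, and only its promoter is described below. All 7 reached the minimum mean of 1 TPM (a share of the RNA of a library, scaled by transcript length) and were among the 12038 genes tested.

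The zygotes were wild type, from BDF1 × BDF1 matings (F2), where BDF1 is the F1 of C57BL/6 and DBA/2. By the stated design they were taken 18 h after the hCG injection that triggers ovulation and cultured for 24 h in KSOM, an embryo medium. The authors' methods give a collection time that starts at 18 h and runs later. The control group received no DMSO, and the other group received 2% DMSO in the same medium. For each group 50 embryos that had reached the 2-cell stage were collected and lysed without isolating single cells. Each group had 2 libraries, named control replicates 1 and 2 and DMSO replicates 1 and 2 below. Each library is a pool of embryos, and the labels do not say whether the replicates came from separate cultures, so the tests measure the spread between these libraries, which may be technical. The comparison asks how RNA levels differ between embryos cultured with and without DMSO.

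CCT is a barrel of stacked rings in which each subunit, encoded by its own gene, takes a fixed place. It binds newly made proteins, closes over them with a built-in lid and lets them fold as it splits ATP. Actin and tubulin are its best known clients, with many proteins built from WD40 repeats. Prefoldin hands unfolded actin and tubulin to the ring. The 2-cell embryo of the mouse is the stage at which transcripts stored by the oocyte are cleared and the embryo's own genome is switched on.

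The whole table summed to 768174 and 780527 TPM in the controls and 772487 and 799166 TPM with DMSO. TPM keeps no sequencing depth, so no counting error can be given. In the controls 22.1% and 23.6% of the total fell to the top 20 genes by level, and with DMSO 29.4% and 35.1%. This share was higher in both DMSO libraries than in either control library, and its part in the results below was not tested. Of 12 markers of oocytes and 2-cell embryos, 11 were tested, and their summed level was 848 and 559 TPM in the controls and 2633.5 and 1789.4 TPM with DMSO. Tcstv3, a 2-cell embryo gene, was the most abundant of them, whereas Nlrp5, an oocyte gene of the subcortical maternal complex, was near 0 in every library. Others of the list were low too, among them Zp3 (0.956 to 2.35 TPM) and Mos (2.94 to 5.51 TPM). By abundant 2-cell genes such as Tcstv3, though not by the list as a whole, the labelled stage was present in all 4 libraries. The test used throughout was limma on log2(TPM + 1) with Benjamini-Hochberg adjustment over all 12038 genes, and a gene is said to rise or fall where its adjusted p was under 0.05. Fold changes are DMSO against control on that log2 scale, where the added 1 makes the change of low genes look smaller. An exact permutation test on 1 gene could reach no p smaller than 0.33 with this many libraries.

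The summed RNA of the 7 CCT subunits was lower in both DMSO libraries than in either control library, though this sum was not tested. The 7 subunits together held 1089.0 and 1182.7 TPM in the controls and 490 and 600 TPM with DMSO. The group means were 1135.9 ± 66.3 and 545 ± 77.8 TPM (SD, n = 2 each), so that the DMSO mean was 48% of the control mean, and the groups did not overlap. As a share of the whole table the subunits held 0.142% and 0.152% in the controls and 0.0634% and 0.075% with DMSO. In pooled embryos, fewer cells that hold a transcript and less of it per cell cannot be told apart.

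Of the 7 subunits, 4 fell (Tcp1, Cct2, Cct4 and Cct8) and none rose. Across all genes tested 14.1% fell and 6.42% rose, 20.5% in all. Both DMSO libraries lay below both control libraries for 6 of the 7 subunits, an arrangement that 38.7% of all genes tested showed. The opposite arrangement, shown by 31.1% of all genes, was shown by no subunit. The median log2 fold change of the 7 was −1.21, and that of all genes tested was −0.09. Of the genes called, 31.3% were higher with DMSO, and this split was 43% under median-ratio scaling and 49% under quantile normalization. No subunit was called without control replicate 1, without control replicate 2 or without DMSO replicate 1, when 3, 3 and 15 genes were called in the whole table, and the same 4 subunits were called without DMSO replicate 2. With no filter on low values no subunit was called, and under quantile normalization Cct2 and Cct4 were called.

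**Figure D1:**
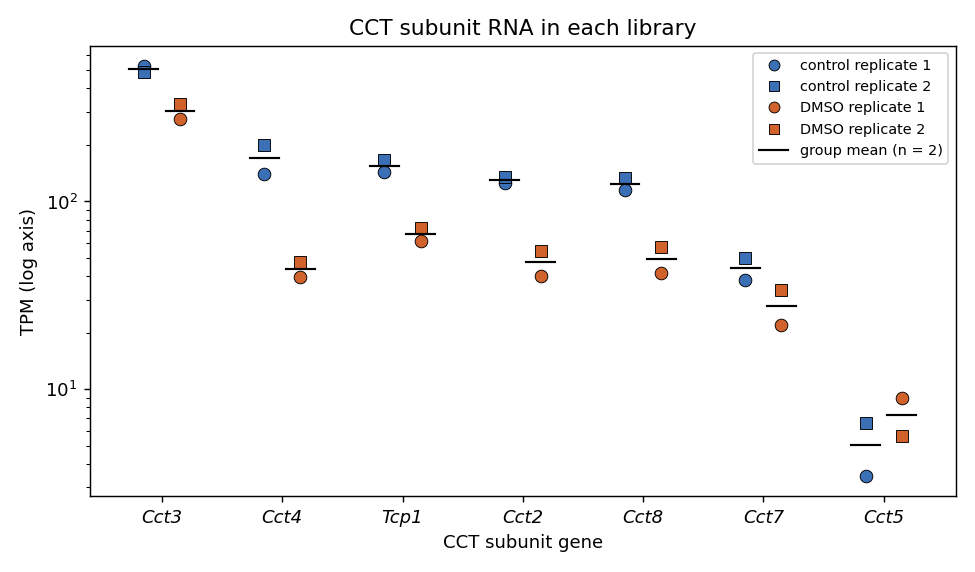
TPM of each CCT subunit gene in each library on a log axis, ordered by the control mean. Circles are replicate 1, squares are replicate 2 and black lines are group means (n = 2). The DMSO points lie below the control points for every subunit but Cct5, the least abundant.

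Cct4, the delta subunit (ENSMUSG00000007739, GRCm38 chr11:22990519-23003780, plus strand), showed the largest fold change of the 7. Its level was 140 and 201 TPM in the controls and 39.5 and 47.7 TPM with DMSO. The highest DMSO library was far below the lowest control library, although the controls were themselves spread. The log2 fold change was −1.93 (SE 0.29, adjusted p = 0.0185), lower than that of all but 3.45% of the genes tested. In the controls Cct4 was the second most abundant subunit by mean, and with DMSO it was the fifth.

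Cct2, the beta subunit (ENSMUSG00000034024, chr10:117051001-117063814, minus strand), had 125 and 135 TPM in the controls and 40 and 54.7 TPM with DMSO. The groups were well apart, with close controls. Its log2 fold change was −1.45 (SE 0.27, adjusted p = 0.0239).

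Cct8, the theta subunit (ENSMUSG00000025613, chr16:87483326-87495873, minus strand), had 115 and 133 TPM in the controls and 41.6 and 57 TPM with DMSO. Here too the groups did not overlap. Its log2 fold change was −1.32 (SE 0.28, adjusted p = 0.0285). On the opposite strand 192 bases of its exons, 6.22% of their length, also belong to exons of Usp16, a gene for a ubiquitin-specific protease. Usp16 had 495 and 447 TPM in the controls and 237 and 276 TPM with DMSO, and it fell as well (log2 fold change −0.88, SE 0.24, adjusted p = 0.0488). The library kit kept no strand, so reads of that stretch cannot be assigned to either gene.

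Tcp1, the alpha subunit after which the complex was first named (ENSMUSG00000068039, chr17:12915701-12925067, plus strand), had 144 and 166 TPM in the controls and 61.5 and 71.9 TPM with DMSO. Its libraries were close within each group and far apart between the groups. The log2 fold change was −1.21 (SE 0.25, adjusted p = 0.0285), which is also the median of the 7. Exons of Acat3 and Mrpl18 on the opposite strand cover 11.4% and 2.8% of its exon bases. Acat3, an acetyl-CoA acetyltransferase gene, was listed at 0 in all 4 libraries. Mrpl18, a mitochondrial ribosomal protein gene, had 119 and 99.4 TPM in the controls and 83.7 and 64.3 TPM with DMSO and was not called (log2 fold change −0.56, adjusted p = 0.17).

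Cct3, the gamma subunit (ENSMUSG00000001416, chr3:88297116-88321767, plus strand), was the most abundant subunit in every library. It had 524 and 491 TPM in the controls and 276 and 329 TPM with DMSO. The groups did not overlap, but the log2 fold change of −0.75 (SE 0.24) had an adjusted p of 0.0712 and missed the threshold.

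Cct7, the eta subunit (ENSMUSG00000030007, chr6:85451514-85468475, plus strand), had 38.3 and 49.9 TPM in the controls and 21.9 and 33.9 TPM with DMSO. The highest DMSO library came within a few TPM of the lowest control library. The log2 fold change was −0.66 (SE 0.32, adjusted p = 0.171). Exons of Pradc1 on the opposite strand cover 3.16% of the exon bases of Cct7. Pradc1 had 37.1 and 30.7 TPM in the controls and 48 and 44.8 TPM with DMSO, and it was not called (log2 fold change 0.45, adjusted p = 0.243).

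Cct5, the epsilon subunit (ENSMUSG00000022234, chr15:31590800-31601804, minus strand), stood apart by its low level. It had 3.46 and 6.59 TPM in the controls and 9.01 and 5.64 TPM with DMSO. The groups overlapped, since the second DMSO library lay between the controls. The log2 fold change was 0.49 (SE 0.40, adjusted p = 0.393), and 70.3% of the genes tested had a lower one. It was the only one of the 7 with a positive log2 fold change.

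**Figure D2:**
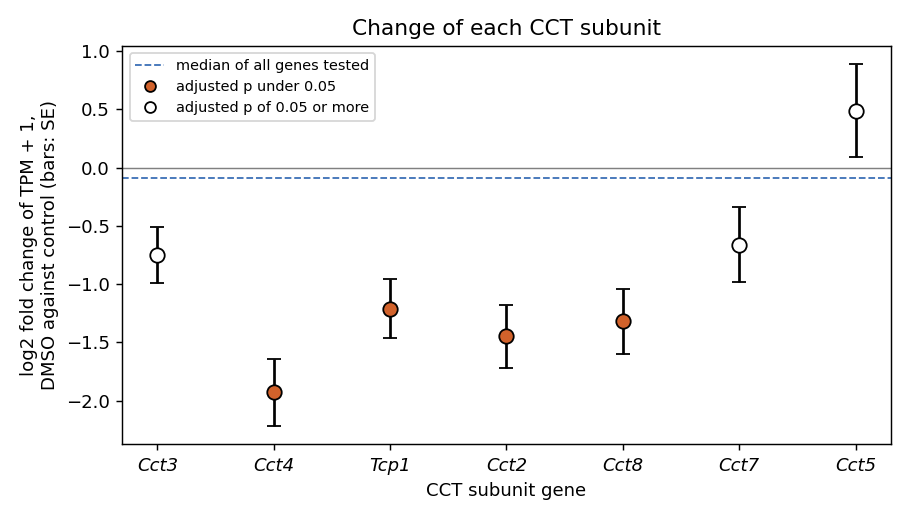
Log2 fold change of TPM + 1, DMSO against control, of each CCT subunit gene, with bars of 1 standard error from limma. Filled points had an adjusted p under 0.05 and the dashed line is the median of all genes tested (−0.09). Cct4 lies lowest at −1.93 and Cct5 alone lies above 0.

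Relative to the median of all genes tested, the log2 fold changes were −1.84 for Cct4, −1.36 for Cct2, −1.23 for Cct8, −1.12 for Tcp1, −0.66 for Cct3, −0.57 for Cct7 and 0.58 for Cct5.

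A ring holds its subunits in equal number, whereas their RNA levels were unequal in every library. The coefficient of variation of TPM across the 7 subunits was 110% and 92.8% in the controls and 132% and 128% with DMSO. Another measure of spread, the highest level over the lowest with Cct5 left out, overlapped between the groups. It was 13.7 and 9.83 in the controls and 12.6 and 9.7 with DMSO. In the controls the order by mean level was Cct3 with 507 ± 23.5 TPM, Cct4 with 171 ± 43 TPM, Tcp1 with 155 ± 15.8 TPM and Cct2 with 130 ± 7.54 TPM (SD, n = 2 each). Below these came Cct8 with 124 ± 13 TPM, Cct7 with 44.1 ± 8.17 TPM and Cct5 with 5.03 ± 2.21 TPM (SD, n = 2 each). The ranges of Cct4 and Tcp1 overlapped, as did those of Cct2 and Cct8, and the other neighbours in that order were apart. With DMSO the order was Cct3 with 303 ± 37.3 TPM, Tcp1 with 66.7 ± 7.33 TPM, Cct8 with 49.3 ± 10.9 TPM and Cct2 with 47.4 ± 10.4 TPM (SD, n = 2 each). Cct4 with 43.6 ± 5.79 TPM, Cct7 with 27.9 ± 8.52 TPM and Cct5 with 7.33 ± 2.38 TPM followed. In this group the ranges of Cct8 and Cct2 overlapped, as did those of Cct2 and Cct4, so that the order of these 3 was not resolved. By mean level Cct3 lay above 98.1% of the genes tested in the controls and above 97.2% with DMSO. The values for Cct4 were 93.7% and 82%, and those for Cct5 were 39.8% and 48.2%.

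The composition of the summed RNA differed between the groups as well. Cct3 made up 48.1% and 41.5% of the sum in the controls and 56.4% and 54.8% with DMSO. Cct4 made up 12.9% and 17% in the controls and 8.07% and 7.96% with DMSO. The groups did not overlap for either gene, but nor did they for any other of the 7, so this does not single out Cct3 and Cct4. The shares of Cct3, Cct5 and Cct7 were higher with DMSO, and those of Tcp1, Cct2, Cct4 and Cct8 were lower. Shares of a sum depend on each other, and these were described without a test or a background over all genes. Set against Cct3 in the same library, which cancels the scaling of the library, Cct4 stood at 26.8% and 41% of the Cct3 level in the controls and at 14.3% and 14.5% with DMSO. Cct2 stood at 23.8% and 27.6% in the controls and at 14.5% and 16.6% with DMSO. Cct8 stood at 21.9% and 27.1% in the controls and at 15.1% and 17.3% with DMSO. The ratios of these 3 and of Tcp1 to Cct3 were lower in both DMSO libraries than in either control library, at 27.5% and 33.9% against 22.3% and 21.9% for Tcp1. Of the other 12037 genes tested, 19.1% had a ratio to Cct3 that was lower in both DMSO libraries than in either control library, and 54% had one that was higher in both. The ratio of Cct7 to Cct3 overlapped between the groups, at 7.32% and 10.2% against 7.91% and 10.3%. That of Cct5 was higher with DMSO, at 0.661% and 1.34% against 3.26% and 1.72%. A lower ratio shows unequal change within a library and not that Cct3 kept its level.

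**Figure D3:**
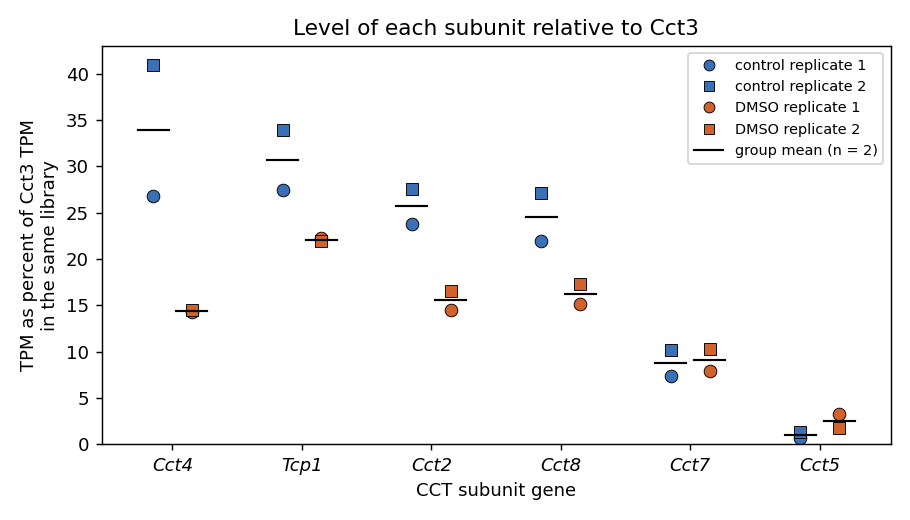
TPM of each CCT subunit gene as a percent of Cct3 TPM in the same library, with circles for replicate 1, squares for replicate 2 and lines for group means (n = 2). Cct4, Tcp1, Cct2 and Cct8 lie lower with DMSO, Cct7 overlaps, and Cct5 lies between 0.661% and 3.26%.

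Sequence shared with other genes was small for most subunits. The share of 31-base words of a gene's transcripts that also occur in transcripts of other genes was 0% for Cct5, 0.0751% for Cct2, 1.99% for Cct4, 4.99% for Cct8, 5.44% for Cct3, 5.57% for Cct7 and 17.9% for Tcp1. The largest holders for Tcp1 were its neighbours Acat3 (10.6%) and Acat2 (6.63%). Acat2 was between 0.518 and 1.51 TPM in the 4 libraries, far below Tcp1. All words that Cct4 shared were in the processed pseudogene Gm15495, which had 3.01 and 0.798 TPM in the controls and 0.369 and 0.0714 TPM with DMSO. The only holder for Cct8 was Usp16 (4.99%), which was above Cct8 in each library. The largest holder for Cct7 was Pradc1 (2.71%), which was above Cct7 in both DMSO libraries and below it in both control libraries. The processed pseudogene Gm5380, which shares 1.52% of the words of Cct7, had 6.91 and 7.99 TPM in the controls and 10.0 and 12.7 TPM with DMSO, below Cct7 in each library.

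RefSeq start sites (GRCm38.p6) gave promoter windows, from 250 bases before to 50 bases after the start, for 7 of the 8 listed genes. Cct4 had no entry. The first window is shown for 3 of the genes that fell and for Cct5, whose libraries overlapped. The sequences run 5′ to 3′ on the strand of the gene, with motif matches in capitals.
Tcp1, chr17:12916079-12916378, plus strand: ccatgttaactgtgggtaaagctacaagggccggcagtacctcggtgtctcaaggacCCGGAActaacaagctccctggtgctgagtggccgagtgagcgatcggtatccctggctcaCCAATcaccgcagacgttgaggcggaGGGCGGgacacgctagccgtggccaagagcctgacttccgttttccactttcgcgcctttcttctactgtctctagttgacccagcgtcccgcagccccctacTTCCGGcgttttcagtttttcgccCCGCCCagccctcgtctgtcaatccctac
Cct2, chr10:117063803-117064102, minus strand: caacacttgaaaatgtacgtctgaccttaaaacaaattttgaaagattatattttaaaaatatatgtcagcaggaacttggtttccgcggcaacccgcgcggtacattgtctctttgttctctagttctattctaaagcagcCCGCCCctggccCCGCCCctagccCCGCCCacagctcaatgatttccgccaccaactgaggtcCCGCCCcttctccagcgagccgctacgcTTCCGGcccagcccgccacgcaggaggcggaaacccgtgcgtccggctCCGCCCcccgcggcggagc
Cct8, chr16:87495820-87496119, minus strand: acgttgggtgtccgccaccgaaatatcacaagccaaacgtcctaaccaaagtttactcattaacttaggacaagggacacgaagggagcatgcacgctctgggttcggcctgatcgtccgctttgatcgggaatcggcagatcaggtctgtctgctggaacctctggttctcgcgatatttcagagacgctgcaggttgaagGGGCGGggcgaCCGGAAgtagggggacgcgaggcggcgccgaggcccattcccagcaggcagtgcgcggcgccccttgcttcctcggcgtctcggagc
Cct5, chr15:31601797-31602096, minus strand: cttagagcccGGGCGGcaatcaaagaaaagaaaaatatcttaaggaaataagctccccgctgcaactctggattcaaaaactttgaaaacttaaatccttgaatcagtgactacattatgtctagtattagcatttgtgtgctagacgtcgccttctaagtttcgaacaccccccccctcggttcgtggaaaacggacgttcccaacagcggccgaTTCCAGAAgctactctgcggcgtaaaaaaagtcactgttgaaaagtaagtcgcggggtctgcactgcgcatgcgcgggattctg

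The motifs searched on both strands were the GC box GGGCGG, bound by Sp factors, the core CCGGAA of ETS factors, the CCAAT box CCAAT, bound by NF-Y, TATAAA, the E-box CACGTG, and the paired heat shock units GAANNTTC and TTCNNGAA, bound by Hsf1. A match to TTCNNGAA holds the ETS core CCGGAA where its open letters N are CG, which was not so for the matches in the subunit windows. The capitals in the windows of Tcp1, Cct2 and Cct8 are GC boxes and ETS cores, with a CCAAT box in Tcp1 too. In the window of Cct5 they are a GC box and TTCCAGAA, a match to TTCNNGAA. All 7 genes with a window held a GC box in at least 1 of their windows, against 35.7% of all 32851 RefSeq windows. The ETS core occurred in windows of Tcp1, Cct2, Cct5, Cct7 and Cct8, against 14.9% of all windows. A paired heat shock unit occurred in a window of Cct2, Cct5 and Cct6a, and GAANNTTC and TTCNNGAA occurred in 7.86% and 8.52% of all windows. The CCAAT box occurred in Tcp1, Cct3, Cct6a and Cct7 (37.4% of all windows). TATAAA (13.6% of all windows) and CACGTG (7.15%) had no match in any window of the subunits. Cct2 and Cct5 have more than 1 window, which gives them more chances of a match. The GC content of the subunit windows ranged from 47.3% to 67.7%, and the median of all windows was 52.7%. These matches describe letters in a window and not binding.

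Other genes around the ring were read from the same fit. Cct6b, a testis paralogue of the zeta subunit, had 7.42 and 4.74 TPM in the controls and 0.838 and 1.88 TPM with DMSO, and it fell (log2 fold change −1.60, adjusted p = 0.0385). Cct8l1, a relative of the theta subunit, had 9.27 and 7.59 TPM in the controls and 2.32 and 1.74 TPM with DMSO, and it fell as well (log2 fold change −1.64, adjusted p = 0.0259). Neither shared a 31-base word with another gene, and both were far less abundant than the ring subunits other than Cct5.

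Of the 6 subunits of prefoldin, 2 fell, 1 rose and 3 were not called, with a median log2 fold change of −0.21, beside 14.1% of all genes tested that fell and 6.42% that rose. Pfdn6 had 219 and 319 TPM in the controls and 33.8 and 52.5 TPM with DMSO (log2 fold change −2.62, adjusted p = 0.0181), a larger fall than that of any CCT subunit. Pfdn2 had 361 and 386 TPM in the controls and 173 and 189 TPM with DMSO (log2 fold change −1.04, adjusted p = 0.0324). Pfdn4 rose, from 53.7 and 49.1 TPM to 121 and 87.8 TPM (log2 fold change 0.99, adjusted p = 0.0496). Pfdn5, the most abundant, had 418 and 445 TPM in the controls and 449 and 579 TPM with DMSO and was not called (log2 fold change 0.24, adjusted p = 0.499). Calls in prefoldin therefore went in both directions. Pfdn2, Pfdn4 and Pfdn5 share 26.7%, 24.3% and 24.6% of their 31-base words with other genes, so their values are uncertain. Counted only over genes with values here, these shares were 26.6%, 2.27% and 24.1%.

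Of the prefoldin-like and R2TP genes, whose products help to assemble RNA polymerases and other large complexes, 7 were tested, 3 fell and none rose (14.1% and 6.42% of all genes tested), with a median of −1.23. Uxt fell from 68.5 and 103 TPM to 13.9 and 20 TPM (log2 fold change −2.27, adjusted p = 0.0181), with 31.8% of its words shared. Rpap3, an assembly factor of RNA polymerase II, fell from 125 and 110 TPM to 53.3 and 45.4 TPM (log2 fold change −1.23, adjusted p = 0.0281). Polr2e, a subunit common to the nuclear RNA polymerases and the most abundant of the list, fell from 344 and 356 TPM to 151 and 176 TPM (log2 fold change −1.10, adjusted p = 0.031). Ruvbl2 and Asdurf were not analysed here.

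The phosducin-like genes, whose products act with CCT on its clients, had 2 members tested and no call. Txndc9, the most abundant, had 157 and 212 TPM in the controls and 125 and 150 TPM with DMSO (log2 fold change −0.41, adjusted p = 0.294). Of the chaperonin-like genes of Bardet-Biedl syndrome only Mkks passed the filter, with 33.2 and 28.5 TPM in the controls and 30.5 and 21.9 TPM with DMSO (log2 fold change −0.24, adjusted p = 0.559). The mitochondrial chaperonin, a different ring made by Hspd1 with its lid Hspe1, had no call. Hspe1, the more abundant, had 80.6 and 77.6 TPM in the controls and 183 and 108 TPM with DMSO (log2 fold change 0.83, adjusted p = 0.104), and Hspd1 was at most 2.54 TPM in any library. Mkks, Hspe1 and Hspd1 share 28.1%, 30.5% and 53.1% of their words with other genes, so these levels are uncertain. Over only the genes with values here, these shares were 4.36%, 14.8% and 50.6%.

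The known clients were read next. Of 12 tubulin genes tested, none fell and 2 rose, with a median of 0.87, where 14.1% of all genes tested fell and 6.42% rose. Tubb2b, counted among those that rose, passed the filter only through the DMSO group, so no support is drawn from its call. Tuba1a rose from 10.1 and 5.51 TPM to 28.9 and 21.2 TPM (log2 fold change 1.60, adjusted p = 0.0332). Tubb2b rose from 1.23 and 0.169 TPM to 4.79 and 3.01 TPM (log2 fold change 1.58, adjusted p = 0.0493). Its mean was 0.7 TPM in the controls, under the filter of 1 TPM, and 3.9 TPM with DMSO. The most abundant tubulin, Tubb4b, had 677 and 535 TPM in the controls and 685 and 515 TPM with DMSO, overlapping ranges with a log2 fold change of −0.02 (adjusted p = 0.951). Tuba1a, Tubb2b and Tubb4b share 78.6%, 43.1% and 53% of their words with other genes, so their values are uncertain, and Tubb1 was listed at 0 in all libraries. Of 6 actin genes only Actb passed the filter, at 1.09 and 0.706 TPM in the controls and 8.58 and 0 TPM with DMSO (log2 fold change 0.71, adjusted p = 0.483), and Actc1 was listed at 0 throughout. Actb is a gene that nearly all cells use, and 23.6% of its words are shared. Its low values, the 0 among them, may therefore be failed estimates. With a control mean of 0.898 TPM, Actb passed the filter only through DMSO replicate 1. Actg1, with 40.2% of its words shared, was at most 0.538 TPM in any library.

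Of 13 genes of WD40 proteins and other clients tested, 1 fell and none rose (14.1% and 6.42% of all genes tested), with a median of 0.45. Ppp2r2a, a regulatory subunit of protein phosphatase 2A, fell from 109 and 90.2 TPM to 38.2 and 43.5 TPM (log2 fold change −1.26, adjusted p = 0.0279). Ccne1, cyclin E1 and the most abundant of the list, had 428 and 438 TPM in the controls and 235 and 286 TPM with DMSO (log2 fold change −0.74, adjusted p = 0.0747). Gnb5 was listed at 0 in all libraries. None of the 6 tubulin cofactor genes, which act after CCT in tubulin folding, was called, and their median was 0.17. Tbca, the most abundant of them by its mean over the 4 libraries, had 122 and 89.2 TPM in the controls and 214 and 164 TPM with DMSO (log2 fold change 0.84, adjusted p = 0.0805), with 25.3% of its words shared.

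Hsf1, the main heat shock transcription factor, had 79.3 and 68.6 TPM in the controls and 70.7 and 94.9 TPM with DMSO. The ranges overlapped (log2 fold change 0.15, adjusted p = 0.703). Of 22 cytosolic heat shock chaperone genes tested, 7 fell and 2 rose, with a median of −0.50, beside 14.1% and 6.42% of all genes tested. Hspa4, a nucleotide exchange factor of Hsp70, fell from 74.5 and 92.3 TPM to 15 and 26.8 TPM (log2 fold change −1.99, adjusted p = 0.0217). Hspb1, a small heat shock protein, fell from 109 and 67.2 TPM to 19.5 and 22.4 TPM (log2 fold change −1.98, adjusted p = 0.0207). Among the other genes that fell were Fkbp4 (log2 fold change −1.61, adjusted p = 0.0382) and Dnajb6 (−1.46, 0.021), the latter with 22.7% of its words shared. Fkbp4, counted among the 7 that fell, passed the filter of 1 TPM only through the controls. Its means were 4.84 TPM there and 0.933 TPM with DMSO, so no support is drawn from its call. Ptges3, a cochaperone of Hsp90 and the most abundant of the list by its mean over the 4 libraries, had 331 and 426 TPM in the controls and 255 and 345 TPM with DMSO and was not called (log2 fold change −0.34, adjusted p = 0.387), with 20.9% of its words shared. The inducible Hsp70 genes were the 2 that rose. Hspa1b rose from 7.01 and 6.96 TPM to 31.7 and 23.7 TPM (log2 fold change 1.83, adjusted p = 0.0209), and Hspa1a from 8.64 and 5.04 TPM to 23.9 and 16.6 TPM (log2 fold change 1.46, adjusted p = 0.0393). These near-identical genes share 68.1% and 70.1% of their words, and Hspb1 shares 55.4%, so how reads were divided is uncertain. Hsph1 and Cdc37 were not analysed here.

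The proteasome, another large cytosolic assembly built from many different subunits, was set beside the ring. Of its 32 subunit genes 16 fell and none rose, and the median was −1.20. For CCT the count was 4 of 7 and the median −1.21, and of all genes tested 14.1% fell and 6.42% rose. Psmc4, an ATPase of its regulatory particle, fell from 41.3 and 64.1 TPM to 5.68 and 9.98 TPM (log2 fold change −2.61, adjusted p = 0.0181). Psma6, of its core ring, fell from 326 and 373 TPM to 50.4 and 109 TPM (log2 fold change −2.22, adjusted p = 0.0219). Psmd12 (log2 fold change −2.11, adjusted p = 0.0181) and Psmc1 (−1.87, 0.0181, with 32.2% of its words shared) also fell. Psmb1, the most abundant by its mean over the 4 libraries though not in each of them, had 371 and 546 TPM in the controls and 104 and 262 TPM with DMSO and was not called (log2 fold change −1.44, adjusted p = 0.0671). The 2 complexes had like medians in these libraries, and no test compared them.

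**Figure D4:**
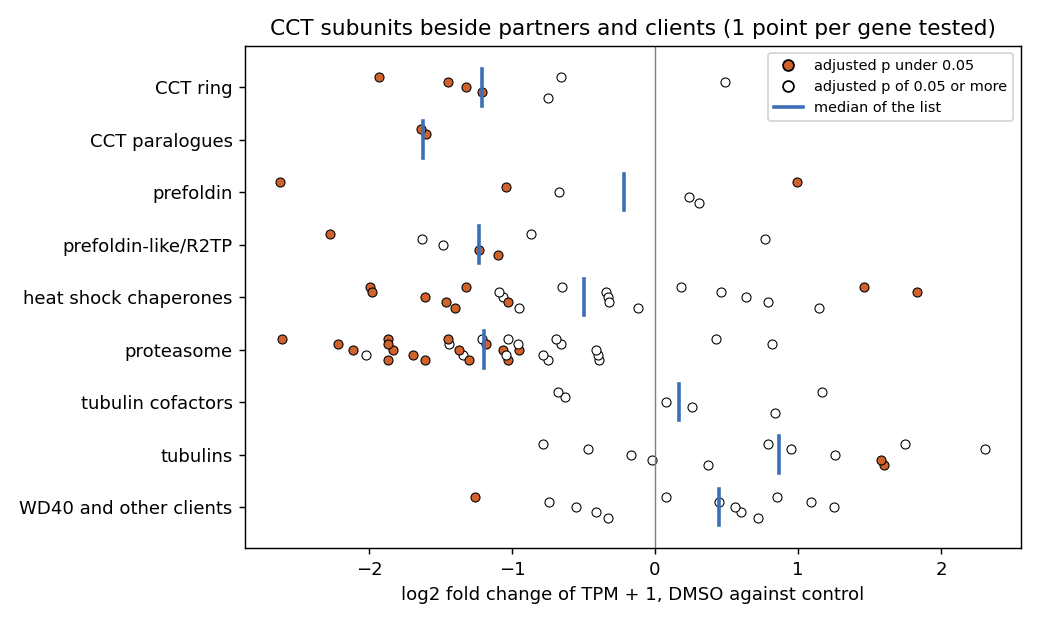
Log2 fold change of TPM + 1, DMSO against control, of each gene tested in the CCT ring and in 8 other lists, with 1 point per gene, filled where the adjusted p was under 0.05, and a blue line at each list's median. The medians were −1.21 for the ring, −1.20 for the proteasome, −0.21 for prefoldin and 0.87 for tubulins.

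Across the whole table, the genes whose pattern over the 4 libraries was most like the mean pattern of the 7 subunits were sought among the 5661 genes whose mean reached 10 TPM, members left out. Likeness was the root mean square difference of log2(TPM + 1), each gene centred on its own mean. The nearest were Fam118b (difference 0.004), Gm15501, a transcribed processed pseudogene (0.026), Gak, a cyclin G associated kinase (0.027), Mad2l2, a subunit of DNA polymerase zeta (0.032), and Flii, an actin-binding protein (0.037). Mad2l2, for example, had 237 and 285 TPM in the controls and 115 and 139 TPM with DMSO. The subunits themselves lay between 0.119 for Tcp1 and 0.805 for Cct5 from their own mean pattern. Over 4 libraries many genes can match a pattern closely, and the match is a description.

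Markers of other cells that could accompany embryos from the oviduct were read in the same libraries. The 8 cumulus and granulosa markers summed to 2.37 and 1.23 TPM in the controls and 2.65 and 2.36 TPM with DMSO. Tnfaip6 and Cyp19a1 were the most abundant of them by mean, Amh was listed at 0 in all libraries, and none passed the filter. The 5 blood markers summed to 11 and 4.11 TPM in the controls and 10.7 and 16.2 TPM with DMSO, Hba-a2 was the most abundant, Hbb-bt was listed at 0, and none was called. The 5 oviduct epithelium markers summed to 129 and 117 TPM in the controls and 70.9 and 96.9 TPM with DMSO. Epcam was the most abundant and fell from 104 and 92.6 TPM to 36.1 and 55.9 TPM (log2 fold change −1.11, adjusted p = 0.0466), as 1 of 4 tested. Foxj1, a defining marker of ciliated oviduct cells, was at most 0.0659 TPM, and Ovgp1, of the secretory cells, had 17.9 and 19.5 TPM in the controls and 26.2 and 33.2 TPM with DMSO. Epcam moved with the CCT subunits, whereas Ovgp1, Pax8 and Krt18 had log2 fold changes of 0.63, 0.16 and 0.64 and were not called. The part of Epcam in the result was not tested. Of the oocyte and 2-cell markers none fell and 4 of 11 rose (Bmp15, Zfp352, Tcstv1 and Tcstv3), where 14.1% of all genes tested fell and 6.42% rose. Bmp15, an oocyte growth factor, rose from 102 and 56 TPM to 544 and 285 TPM (log2 fold change 2.36, adjusted p = 0.0221). Whether this difference in stage markers played a part in the CCT values was not tested.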

How the data were processed

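RNA of 4 libraries (2 control, 2 DMSO) was analysed from 1 deposited table. The authors made its TPM values with kallisto on Ensembl transcripts of GRCm38 and summed them per gene with tximport, from cDNA amplified with a SMARTer kit. The kallisto version is not given in the sources used here, and depth cannot be read from TPM. Samples were grouped by their labels. GENCODE M21 named 29668 of 30049 gene identifiers, and 381 had no name.

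The test was limma (version 3.58.1, R 4.3.3) on log2(TPM + 1) of genes whose mean over the libraries reached 1 TPM (lmFit, eBayes with a trend, no block, Benjamini-Hochberg adjustment, called under 0.05). The limma step was tested on simulated data. Words of 31 bases were counted on either strand. Python 3.11.15, pandas 2.3.3, numpy 2.4.6 and matplotlib 3.10.9 were used. Beyond the subunits, the text names every gene called in each list, at most 4 per direction by fold change, the most abundant gene by its mean over the libraries and genes listed at 0, and the 5 genes most like the members. The subunits and lists were chosen with earlier results of these data known. Other scalings, filters, a block and left-out libraries were alternatives. Usp16, Mrpl18, Acat2, Acat3, Pradc1, Gm15495, Gm5380, Hspd1, Nlrp5, Cyp19a1, Foxj1 and Ovgp1 fall outside that rule and were named for overlap, shared sequence or role after their values were seen. Zp3, Mos, Pax8, Krt18 and Actg1 also fall outside it and were named for their levels or direction after these were seen.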

Additional observations from a re-analysis of the deposited data

How the results depend on the processing

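The number of genes called was 2470 of 12038. It stayed within 1.5 times that number under median-ratio scaling (2210), quantile normalization (2197), a minimum mean of 5 TPM (2450), a pseudocount of 0.1 (2053) and eBayes with no trend (2026). With no filter on low values 22257 genes were tested by limma, 0 were called, 5368 had an unadjusted p under 0.05, and 0 CCT subunits were called, with 5 lower at an unadjusted p under 0.05 and a lowest adjusted p of 0.102. Under quantile normalization 2 subunits were called, Cct2 and Cct4, while Tcp1 and Cct8 had adjusted p = 0.0588 and 0.0552. The cause was not tested. Leaving out 1 library at a time gave 3 to 2091 genes called and 0 to 4 subunits called, with the lone library assumed to vary like the other group. Without control replicate 1, control replicate 2 and DMSO replicate 1 3, 3 and 15 genes were called. Over the subunits the median log2 fold change ranged from −1.32 to −0.89 over these alternatives, and that of all genes from −0.19 to 0.01. The labels do not say that a replicate number marks a shared batch. The deviations of replicate 1 of each group from their group means had r = 0.354 over 12038 genes, and with a replicate block 5132 genes and 6 subunits were called, Cct3 (adjusted p = 0.0146) and Cct7 (0.0449) being added. Of 77 single values of subunits over 11 alternatives, none changed direction, 57 kept their side of the threshold, 18 lost the call and 2 gained it. The summed level of the subunits with DMSO was 48% of control as deposited and 51.4% after median-ratio scaling. TPM sets no limit from depth, so low levels such as that of Cct5 have no counting interval.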
